A study of Mus musculus with 4 samples.

Results

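Serpins are a family of proteins named for the inhibition of serine proteases, and 39 genes of this family were measured among 18193 named genes. Members were the genes whose platform symbol starts with Serpin, read from probe sets that name a single gene, and 1 gene of that prefix was not analysed here. Their 55 probe sets were reduced to 1 for each gene, the one with the highest mean over the 4 arrays. By the clade letter in the symbol there were 14 genes of clade A, 18 of clade B, 2 of clade F and 1 each of clades C, D, G, H and I. One of the clade A members, Serpina4-ps1, is annotated as a transcribed pseudogene.

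An inhibitory serpin offers a loop to its target protease as bait, and the cut loop inserts into the serpin, trapping the protease in a stable complex. Clade A serpins are mostly secreted, many of them by the liver, and include inhibitors of elastase and chymotrypsin as well as hormone carriers. Clade B serpins lack a classical signal peptide, act largely inside cells and protect them from proteases of lysosomes and granules, and several are typical of squamous epithelium. The other clades hold inhibitors of clotting and complement proteases and a collagen chaperone.

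The study measured RNA from the epithelium of the gastric corpus, the acid-secreting part of the mouse stomach. The mice were wild type (WT), 6 weeks old, and from 3 strains, FVB/N, BALB/c and C57BL/6. Tamoxifen, a drug that binds estrogen receptors, was given intraperitoneally at 5 mg for every 20 g that a mouse weighed. The 4 groups were tamoxifen after 12 hours, tamoxifen after 2.5 days, tamoxifen after 4.5 days and vehicle at 2.5 days, the vehicle being 10% ethanol in sunflower seed oil. Each group was 1 array of RNA pooled from 3 mice, and the labels tie no strain to an array and do not say which mice were injected for 1 day and which for 3. No group therefore has a spread between samples, no p-value is given, and every difference below describes a pair of pools. The single vehicle array served all 3 comparisons with tamoxifen, so these share its error. The comparisons at 12 hours and 4.5 days have no vehicle array of their own time. In them, tamoxifen and the time of collection cannot be told apart.

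Levels are log2 RMA values (RMA is a summary of the probes of a probe set after background correction and quantile normalization), and a difference of 1 is 2-fold. The array medians over all probe sets lay between 5.30 and 5.34, and 18 spiked hybridisation controls differed from vehicle by at most 0.31 in size on any tamoxifen array. Gastric markers were bright, with the 4 surface mucous genes at 13.31 or above on every array and the proton pump gene Atp4a at 12.04 to 12.71 on the tamoxifen arrays and 13.38 in vehicle. The pools held other tissue as well. Of 14 markers of squamous epithelium, such as the forestomach lining, 4 were above the array median at 12 hours, 13 at 2.5 days and 14 at 4.5 days after tamoxifen, against 12 in vehicle. Of 11 pancreatic acinar markers, 11 were above it at 12 hours, 6 at 2.5 days and 6 at 4.5 days, against 5 in vehicle. The 12-hour array thus stood apart from the other 3 in both lists, and results resting on it are also given without it. In bulk RNA, fewer cells of a type and less RNA per cell cannot be told apart.

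Of the 39 serpins, 7 were at least 2-fold different from vehicle on 1 or more tamoxifen arrays, which is 17.9%, against 6.1% of all genes. Serpina3n and Serpina7 of clade A were higher at 12 hours and 2.5 days, and Serpina3n also at 4.5 days. Serpinb6b and Serpinb9 of clade B were higher at 4.5 days. Serpinb12, Serpinb2 and Serpinb3a, also of clade B, were lower at 12 hours. Without the 12-hour array 4 serpins were past 2-fold, 10.3% of the family against 5.24% of all genes, namely Serpina3n, Serpina7, Serpinb6b and Serpinb9. No gene of clades C, D, F, G, H or I was past 2-fold on any array.

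The stretch around the transcription start is shown for 4 of these genes: Serpina3n, the serpin above vehicle at all 3 times, and the 3 clade B genes that were low together at 12 hours. The sequences are RefSeq promoters of build GRCm38.p6, from 250 bases before to 50 bases after the annotated start, and the table held 33 of the 39 members. They lie at chr12:104406458-104406757 on the plus strand (Serpina3n), chr1:106934199-106934498 on the plus strand (Serpinb12), chr1:107511173-107511472 on the plus strand (Serpinb2) and chr1:107052254-107052553 on the minus strand (Serpinb3a). Capitals mark matches, on either strand, to 6 motifs described in the next paragraph.
Serpina3n: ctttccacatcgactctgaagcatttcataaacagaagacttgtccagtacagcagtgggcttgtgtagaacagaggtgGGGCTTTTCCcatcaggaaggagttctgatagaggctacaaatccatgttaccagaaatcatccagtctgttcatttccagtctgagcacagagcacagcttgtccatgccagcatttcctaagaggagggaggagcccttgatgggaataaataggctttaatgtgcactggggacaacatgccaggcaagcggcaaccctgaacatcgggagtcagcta
Serpinb12: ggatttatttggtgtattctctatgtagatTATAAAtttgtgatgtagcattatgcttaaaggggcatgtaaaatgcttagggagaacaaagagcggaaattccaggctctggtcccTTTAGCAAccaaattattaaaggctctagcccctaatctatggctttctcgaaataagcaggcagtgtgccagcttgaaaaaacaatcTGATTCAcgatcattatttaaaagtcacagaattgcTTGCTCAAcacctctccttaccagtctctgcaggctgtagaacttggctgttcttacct
Serpinb2: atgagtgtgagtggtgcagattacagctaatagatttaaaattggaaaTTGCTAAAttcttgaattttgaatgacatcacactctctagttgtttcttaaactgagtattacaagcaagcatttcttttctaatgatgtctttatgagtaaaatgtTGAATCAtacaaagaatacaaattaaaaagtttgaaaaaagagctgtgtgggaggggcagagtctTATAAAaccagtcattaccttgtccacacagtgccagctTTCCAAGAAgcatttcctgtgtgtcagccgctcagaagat
Serpinb3a: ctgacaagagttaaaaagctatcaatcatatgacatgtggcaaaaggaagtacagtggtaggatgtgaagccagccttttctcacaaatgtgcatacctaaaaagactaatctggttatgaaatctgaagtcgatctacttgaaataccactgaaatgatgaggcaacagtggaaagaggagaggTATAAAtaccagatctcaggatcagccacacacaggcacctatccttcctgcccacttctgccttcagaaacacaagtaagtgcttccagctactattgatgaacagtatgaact

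The motifs were chosen after the values were known and were AP-1 (TGANTCA), the TATA box (TATAAA), NF-kB (GGG and TTTCC with any 2 bases between), STAT (TTCNNNGAA), C/EBP (TTGCNNAA) and ISRE (GAAA and GAAA with any 2 bases between). Positions count from the start, negative before it. Serpinb12 and Serpinb2 each held 1 AP-1 match, at -45 to -39 and at -94 to -88, while Serpinb3a held none in this window. AP-1 matches occur in 7.81% of the 32851 promoters in the table. TATAAA was present in all 3 clade B windows, beginning at -29 in Serpinb2, -65 in Serpinb3a and -220 in Serpinb12, against 13.6% of all promoters. C/EBP matches numbered 2 in Serpinb12 and 1 in Serpinb2 (10.8% of promoters hold one), and Serpinb2 had 1 STAT match just after the start (8.3%). The Serpina3n window held a single match, NF-kB at -171 to -162, which 1.63% of promoters hold. ISRE (3.44%) matched none of the 4, and no match overlapped another. Serpinb12 and Serpinb2 each have another start in the table, which is not shown. A match describes letters and is not evidence of binding.

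Among the clade A genes, Serpina3n had the largest difference from vehicle at each time. It encodes a secreted inhibitor of chymotrypsin-like and elastase-like proteases that is known in the mouse as an acute-phase gene. Its level was 10.30 at 12 hours, 9.79 at 2.5 days and 9.07 at 4.5 days after tamoxifen, against 7.52 in vehicle. All 3 tamoxifen arrays lay above vehicle, the earliest highest, with log2 differences of 2.79, 2.27 and 1.55, or 6.91-fold, 4.84-fold and 2.93-fold. It was read by 1 probe set, and it belongs to a group of closely related mouse genes on which probes can cross-hybridise. Among the serpins measured, only Serpina3a and Serpina3i also belong to that group. They stayed at 3.57 to 4.04 on all 4 arrays, below every array median. Cross-hybridisation from the other genes of the group was not tested.

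Serpina7 encodes thyroxine-binding globulin, a hormone carrier that does not inhibit proteases. Its level was 6.50 at 12 hours, 5.00 at 2.5 days and 3.84 at 4.5 days after tamoxifen, against 3.90 in vehicle. The log2 differences were 2.60, 1.10 and -0.06, and only the 12-hour value lay above its array's median. Both Serpina3n and Serpina7 were highest on the array where acinar markers were 6.54 above vehicle in the median. At 2.5 and 4.5 days the acinar median was -0.31 and -0.47, while Serpina3n was still past 2-fold at both times and Serpina7 at 2.5 days. For the liver, where many clade A serpins are made, 3 of 10 liver and plasma protein genes were above the array median at 12 hours, 3 at 2.5 days and 2 at 4.5 days after tamoxifen, against 3 in vehicle. Apoa1 and Ttr were bright throughout, Apoa1 at 9.99 to 12.40 after tamoxifen and 13.50 in vehicle, and Ttr at 10.13 to 10.98 after tamoxifen and 12.53 in vehicle. The albumin gene Alb and the fibrinogen genes Fga, Fgb and Fgg lay between 2.82 and 5.21, below the median of every array. The part of pancreatic or liver RNA in the values of Serpina3n and Serpina7 was not tested.

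The other 12 clade A genes were dim, none of them above an array median on any array. They include Serpina1b and Serpina1c, which encode antitrypsins of the alpha-1 type and have near-identical copies, Serpina6, the corticosteroid carrier, Serpina5, Serpina9, Serpina10, Serpina11 and Serpina12. Serpina10 had their highest difference, 0.43 at 12 hours, and Serpina1c their lowest, -0.71 at 2.5 days. As a clade, 2 of 14 genes were at least 2-fold higher at 12 hours (against 0.698% of all genes), 2 at 2.5 days (2.33%) and 1 at 4.5 days (2.62%). None was at least 2-fold lower, against 1.42%, 1.36% and 1.93% of all genes. Below vehicle at any size were 8, 10 and 11 of the 14 at the 3 times, beside 53.1%, 53.0% and 52.7% of all genes.

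**Figure D1:**
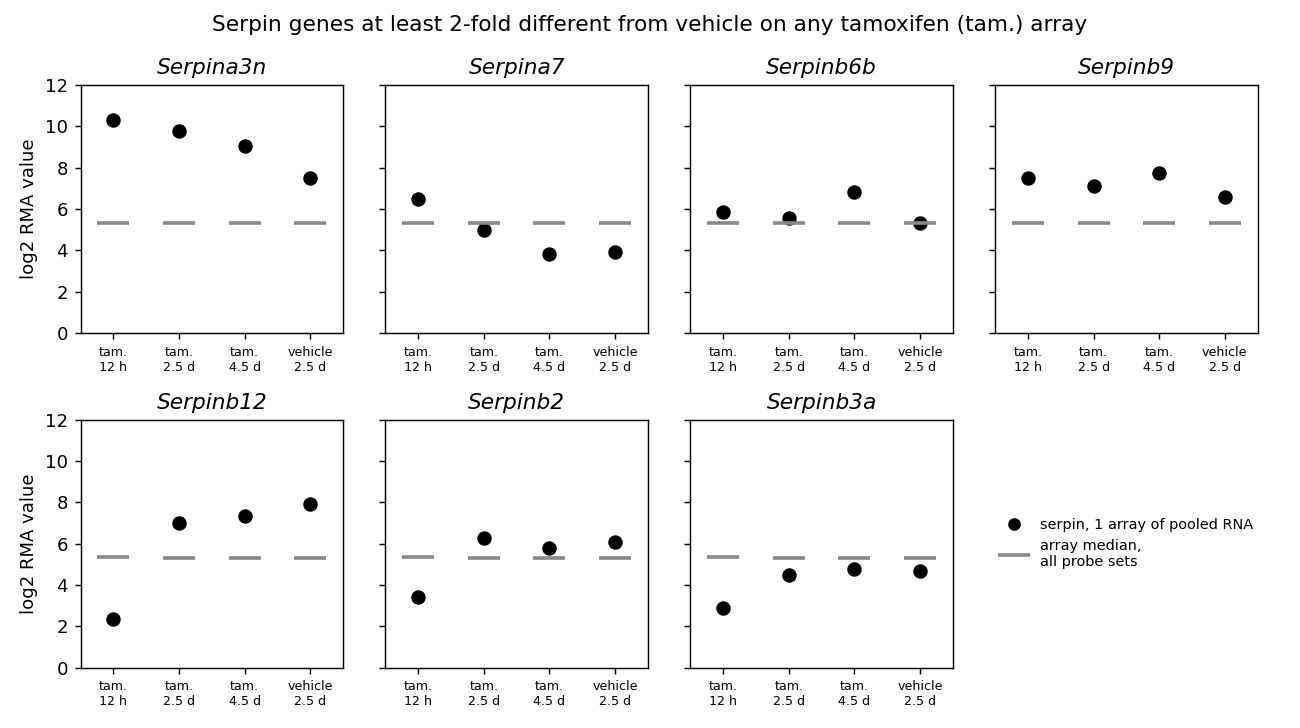
Level (log2 RMA value, 1 array of pooled RNA per point) of the 7 serpins at least 2-fold different from vehicle on any tamoxifen (tam.) array, with grey bars at each array's median over all probe sets. Serpina3n lies at 9.07 to 10.30 on the tamoxifen arrays and at 7.52 in vehicle. Serpinb12, Serpinb2 and Serpinb3a are lowest on the 12-hour array, and Serpinb3a is below the median on every array.

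Within clade B, the largest difference of any serpin belonged to Serpinb12, an inhibitor of trypsin-like proteases found in surface epithelia. Its level was 2.37 at 12 hours, 6.98 at 2.5 days and 7.34 at 4.5 days after tamoxifen, against 7.90 in vehicle. The 12-hour value stood at percentile 0.446 of that array's probe sets, and the log2 differences were -5.52, -0.92 and -0.56. A second, dim probe set lay at 3.78 to 4.14 and differed by -0.35, -0.36 and 0.00.

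Serpinb2 encodes plasminogen activator inhibitor type 2, which is also abundant in keratinocytes and activated macrophages. Its level was 3.40 at 12 hours, 6.26 at 2.5 days and 5.80 at 4.5 days after tamoxifen, against 6.07 in vehicle. The 12-hour array alone was low, with log2 differences of -2.67, 0.18 and -0.27. Serpinb3a, a mouse relative of the human squamous cell carcinoma antigens, was likewise lowest at 12 hours, at a dimmer level. It was at 2.89 at 12 hours, 4.49 at 2.5 days and 4.76 at 4.5 days after tamoxifen, against 4.67 in vehicle, all below the array medians, and the differences were -1.78, -0.18 and 0.09. Its probe set is of a kind that can cross-hybridise with related genes.

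These 3 genes were low where markers of squamous epithelium were low. At 12 hours 13 of the 14 squamous markers were at least 2-fold lower and the exception, Ivl, differed by 0.07. The list's median difference was -4.90, and its mean level was 4.54, against 8.70 in vehicle. The keratin gene Krt13, for example, was at 4.22 at 12 hours and 10.19 in vehicle. The squamous medians of -0.31 at 2.5 days and 0.02 at 4.5 days stood beside serpin differences of -0.92 to 0.18. The part of squamous tissue in the pools in these serpin values was not tested.

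Clade B genes lie in clusters on chromosomes 1 and 13 of the mouse annotation, a property that did not enter their choice. The chromosome 1 cluster has 12 protein-coding members, of which 7 were measured, and all 7 were below vehicle at 12 hours, beside 53.1% of all genes, with a median difference of -0.82. Serpinb11 and Serpinb7 were at -0.82 and -0.60, both dim on every array. Serpinb5, or maspin, a non-inhibitory serpin of epithelial cells, and Serpinb8, an inhibitor of the convertase furin, were at -0.36 and -0.03. The other Serpinb8 probe set was at 0.25 at 12 hours, so the sign of this gene depends on the probe set. The chromosome 13 cluster has 16 protein-coding members, of which 11 were measured. Of those, 8 were above vehicle at 12 hours and 3 below, with a median of 0.17 and a range of -0.15 to 0.89. At 2.5 days the medians of the chromosome 1 and chromosome 13 genes were -0.18 and 0.08, and at 4.5 days they were -0.25 and 0.11. Neighbours in a cluster are related in sequence, and these counts are a description.

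**Figure D2:**
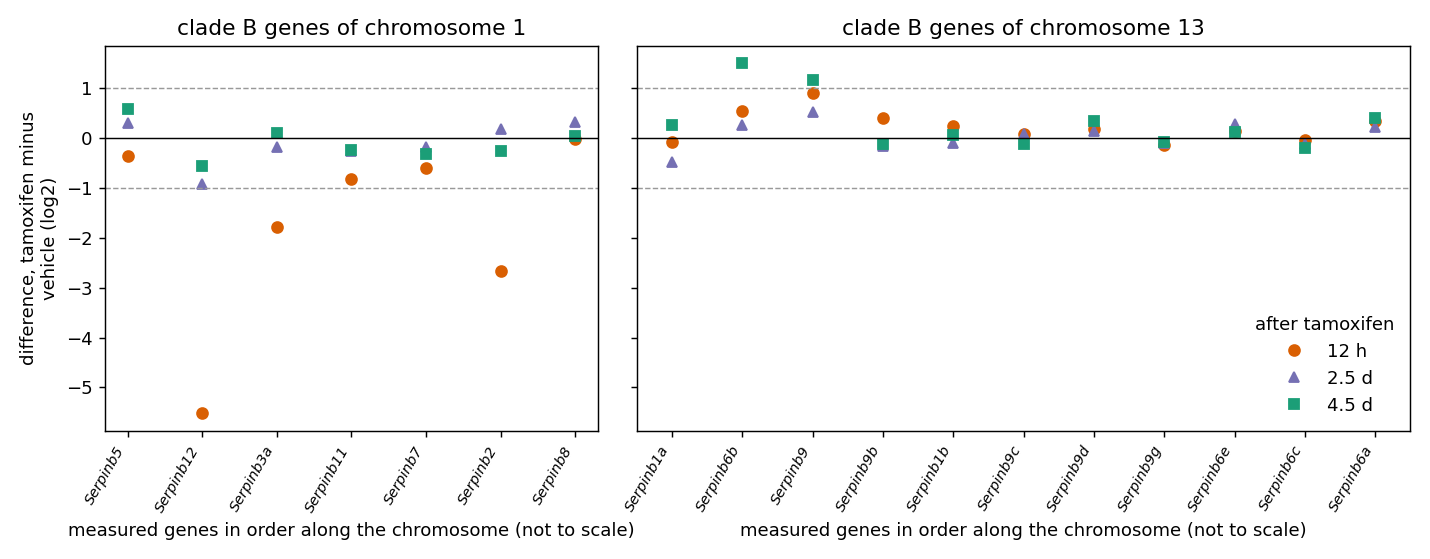
Log2 difference from vehicle of the measured clade B serpins in their order along chromosomes 1 (7 genes) and 13 (11 genes), at 12 hours, at 2.5 days and at 4.5 days after tamoxifen, with dashed lines at 2-fold. All 7 genes of chromosome 1 lie below 0 at 12 hours, 3 of them past 2-fold. Serpinb8 is there at -0.03, and its other probe set, not drawn, was at 0.25. The points past 2-fold on chromosome 13 are Serpinb6b and Serpinb9 at 4.5 days.

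On chromosome 13 Serpinb9, which blocks granzyme B of cytotoxic cells, was above vehicle on all 3 tamoxifen arrays. Its level was 7.48 at 12 hours, 7.12 at 2.5 days and 7.75 at 4.5 days, against 6.60 in vehicle. The differences were 0.89, 0.52 and 1.15, so that the 4.5-day array alone was past 2-fold, and the other probe set gave 0.52, 0.48 and 1.34. Gzmb, the granzyme B gene, lay at 4.17 to 4.51 on the tamoxifen arrays and at 4.13 in vehicle, below all array medians. The 7 T and NK cell markers had medians of 0.26, -0.28 and -0.18.

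Serpinb6b, a mouse paralogue of Serpinb6a, was at 5.85 at 12 hours, 5.57 at 2.5 days and 6.81 at 4.5 days after tamoxifen, against 5.32 in vehicle. Only the 4.5-day array stood out, with differences of 0.53, 0.25 and 1.49. On that array the mast cell protease genes Mcpt1 and Mcpt2 were 3.64 and 2.37 above vehicle, although the 7 mast cell markers had a median of 0.61 there. These were the 2 markers at least 2-fold higher, and 1, Kit, was at least 2-fold lower, at -1.14. Of 5 mesothelial markers Msln was at 2.26, and that list's median was 0.51. The 9 macrophage markers had medians of 0.35, 1.0 and 0.82 at the 3 times. The part of these cells in the Serpinb6b and Serpinb9 values was not tested.

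The brightest clade B genes, Serpinb1a and Serpinb6a, stayed within 2-fold of vehicle. Serpinb1a, which inhibits neutrophil serine proteases, was at 10.53 at 12 hours, 10.13 at 2.5 days and 10.88 at 4.5 days after tamoxifen, against 10.62 in vehicle. Serpinb6a, an intracellular inhibitor of cathepsin G and trypsin-like proteases, was at 10.98, 10.85 and 11.03 on the tamoxifen arrays in the same order, against 10.64 in vehicle. All 3 Serpinb6a values were above vehicle by 0.22 to 0.39. Those of Serpinb1a lay on both sides of it, with differences of -0.09, -0.49 and 0.25. The neutrophil protease genes Elane, Prtn3 and Ctsg lay between 3.79 and 5.59 on all arrays.

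Serpinb5 was at 8.13 at 12 hours, 8.79 at 2.5 days and 9.07 at 4.5 days after tamoxifen, against 8.49 in vehicle. All 4 of its probe sets were below vehicle at 12 hours, by -0.36 to -0.11, and above it at 4.5 days, by 0.43 to 0.77. Serpinb8 was at 6.71, 7.06 and 6.77 on the tamoxifen arrays in order of time, against 6.74 in vehicle. Serpinb6e was at 7.07, 7.21 and 7.05, against 6.94 in vehicle, and its only probe set, like that of Serpinb3a, can cross-hybridise with related genes. These probe sets of Serpinb8 and Serpinb6e differed from vehicle by 0.32 at most, and the other Serpinb8 probe set by 0.25, 0.52 and 0.33. Furin, the target of Serpinb8, was at 9.02, 9.14 and 8.26, against 10.85 in vehicle, differences of -1.82, -1.71 and -2.59.

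Among the other clades, Serping1 encodes the C1 inhibitor, which restrains complement and the contact system. It was at 10.86 at 12 hours, 10.68 at 2.5 days and 10.65 at 4.5 days after tamoxifen, against 10.63 in vehicle, with differences of 0.23 at most. Serpinh1, the collagen chaperone HSP47, which does not inhibit proteases, was at 9.66, 9.59 and 9.66, against 9.89 in vehicle. Its differences were -0.23, -0.29 and -0.23, and its other probe set gave -0.26, 0.11 and 0.19. The probe sets thus differed in sign at 2.5 and 4.5 days. The one used, like that of Serpinb3a, is of a kind that can cross-hybridise with related genes. Serpinf1, the anti-angiogenic factor PEDF, was at 6.85, 6.87 and 7.01, against 7.33 in vehicle, differences of -0.48, -0.46 and -0.31, while its other probe set gave -0.06, -0.22 and -0.23. These 3 genes thus stayed within 2-fold of vehicle at every time. Of tissue markers moving beside them, the fibroblast list had medians of -0.30, 0.07 and 0.23, the endothelial list -0.27, -0.31 and -0.41, and the smooth muscle list -0.35, -0.62 and -0.61; their part in the serpin values was not tested.

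The genes around HSP47 differed from vehicle in their own ways. Of 14 genes of collagens and their modifying enzymes, P4ha2, a subunit of prolyl hydroxylase, was the 1 member past 2-fold at each time, at -1.38, -1.16 and -1.38, and the medians were -0.28, 0.15 and 0.25. Of 11 heat shock genes 2 were past 2-fold, Hspa1a at 1.56 and Hspa1b at 1.02, both at 12 hours, with medians of 0.17, 0.50 and 0.44.

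The remaining 24 serpins, whose mean was below the median of all genes' means and which did not pass 2-fold, ranged in level from 2.52 (Serpinb9g) to 6.72 (Serpinf2). They include Serpinc1 and Serpind1, which encode antithrombin and heparin cofactor II, Serpinf2, the antiplasmin gene, and Serpini1, the neuronal inhibitor neuroserpin. Their differences from vehicle ran from -0.82 to 0.43 at 12 hours, from -0.71 to 0.32 at 2.5 days and from -0.66 to 0.42 at 4.5 days. RMA compresses differences of dim genes.

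Counted over the family, 2 of 39 serpins were at least 2-fold higher at 12 hours (5.13%, against 0.698% of all genes) and 3 were at least 2-fold lower (7.69%, against 1.42%). At 2.5 days 2 were higher (5.13%, against 2.33%) and 0 lower (against 1.36%). At 4.5 days 3 were higher (7.69%, against 2.62%) and 0 lower (against 1.93%). The serpin medians were 0.00, -0.10 and -0.09, beside -0.02 over all genes at each time. With 39 members, these shares rest on 2 or 3 genes each. Of the 10 serpins whose mean reached the median of all genes' means, 1 was higher at 12 hours (0.912% of the genes so filtered) and 0 lower (1.63%). At 2.5 days 1 of the 10 was higher (3.14%) and 0 lower (1.86%), and at 4.5 days 2 were higher (3.63%) and 0 lower (2.72%). That mean includes the 12-hour value. Serpinb12, at 6.98 to 7.90 on the other arrays and 2.37 at 12 hours, had a mean of 6.15, below the cut of 6.63. The count of 0 lower at 12 hours thus leaves out a gene by its own fall.

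Between the tamoxifen arrays, 3 serpins were at least 2-fold higher at 2.5 days than at 12 hours, against 1.86% of all genes, and 1 was lower, against 0.456%. The higher ones were Serpinb12, Serpinb2 and Serpinb3a, by 4.61, 2.86 and 1.60, and the lower one was Serpina7, by -1.50. In the step between 2.5 and 4.5 days 1 serpin was at least 2-fold higher, Serpinb6b by 1.24 (0.17% of all genes), and 1 lower, Serpina7 by -1.16 (0.132%). Of the 10 brighter serpins 0 passed 2-fold in either step, where 2.19% of such genes were higher and 0.627% lower in the earlier step and 0.143% higher and 0.154% lower in the later one. Serpinb12 is not among these 10, since its low 12-hour value lowered the mean used as the filter. Serpina3n was lower at each later time, by -0.51 and -0.72, within 2-fold. Serpinb1a was higher at 4.5 days than at 2.5 days by 0.75, and by 0.53 with its other probe set, also within 2-fold. The step from 12 hours shares its array with the 12-hour comparison, so the clade B values there are not a repeat.

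**Figure D3:**
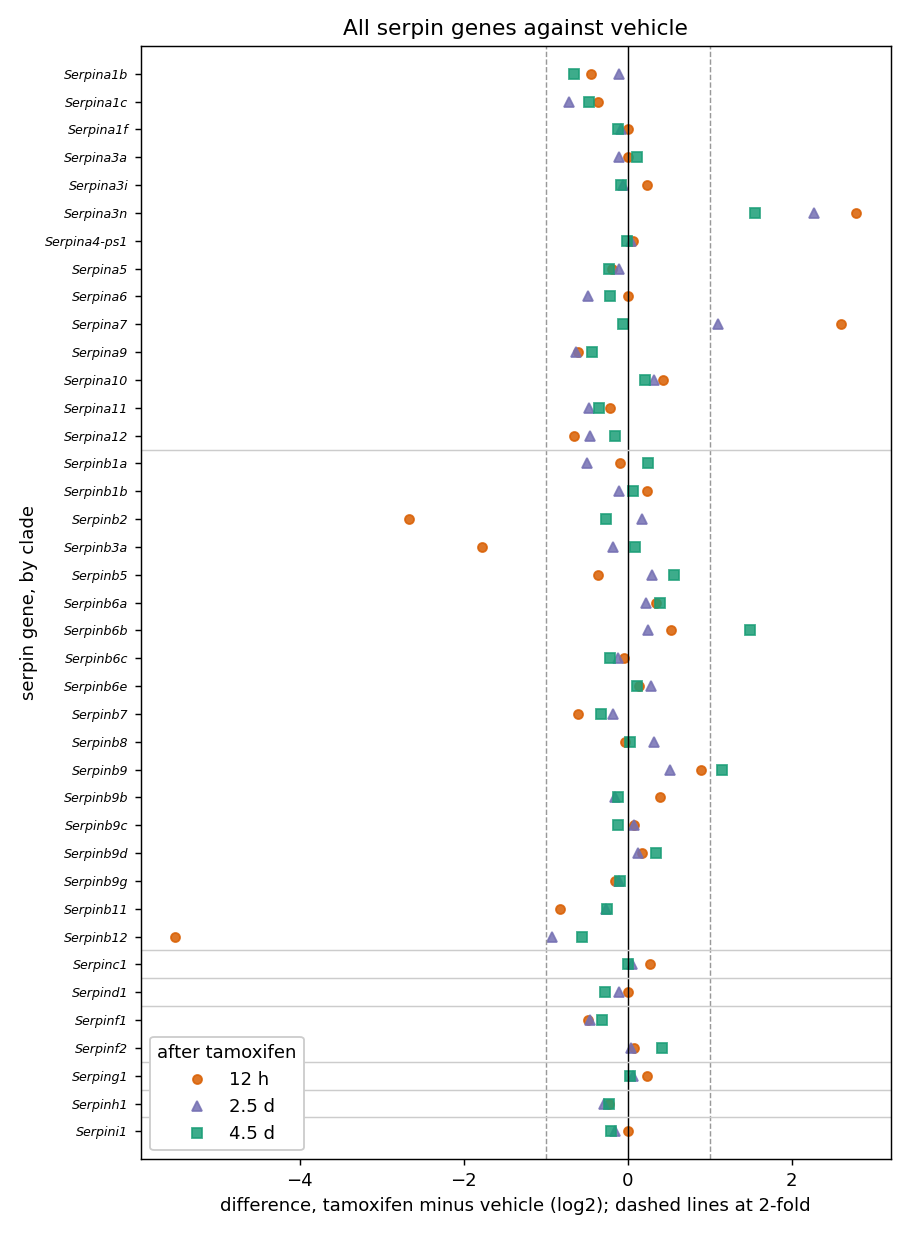
Log2 difference from vehicle of all 39 serpin genes, ordered by clade, at 12 hours (circles), 2.5 days (triangles) and 4.5 days (squares) after tamoxifen, with dashed lines at 2-fold. Most points lie within 2-fold, and those outside belong to 7 genes of clades A and B.

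Proteases that serpins are known to trap and regulate were read from a list of 27 measured genes. At 12 hours 1 was at least 2-fold higher, the tissue kallikrein gene Klk1 at 2.07, and 1 lower, Furin. At 2.5 days the cysteine protease gene Ctss was higher, at 1.62, and 2 were lower, Furin and the plasma kallikrein gene Klkb1 at -1.04. At 4.5 days Ctss was at 1.66 and Plau, the urokinase gene, at 1.41, while Furin and Klkb1 (-1.15) were again past 2-fold lower. The list medians were 0.10, 0.04 and 0.10. Klk1 is also a gene of the pancreas, and its highest value was on the array with high acinar markers. It was at 11.21 at 12 hours, 8.52 at 2.5 days and 8.48 at 4.5 days after tamoxifen, against 9.13 in vehicle. The part of pancreatic RNA in the Klk1 values was not tested.

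Urokinase and its receptor activate plasminogen at the cell surface, and Serpinb2 inhibits that step. Plau was at 6.10 at 12 hours, 7.32 at 2.5 days and 8.26 at 4.5 days after tamoxifen, against 6.85 in vehicle. The receptor gene Plaur was at 8.40, 8.62 and 8.99, against 7.78 in vehicle. Both were highest at 4.5 days, by 1.41 and 1.21, and Plaur was above vehicle at all times. Of 9 genes of the plasminogen system these were the 2 past 2-fold higher, at 4.5 days alone, and Vtn, the vitronectin gene, was the 1 past 2-fold lower, at -1.08.

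Protease inhibitors outside the serpin family were read from a list of 27 genes. At 12 hours 2 were at least 2-fold higher and 4 lower, with Spink1, the trypsin inhibitor of the exocrine pancreas, at 4.93 and Spink5, the inhibitor of squamous epithelium, at -4.47. Timp1, an inhibitor of metalloproteinases, was at 7.93 at 12 hours, 8.57 at 2.5 days and 8.11 at 4.5 days after tamoxifen, against 6.18 in vehicle. Like Serpina3n it was past 2-fold above vehicle on all 3 arrays, with differences of 1.75, 2.39 and 1.92. Mug1, a murinoglobulin, was past 2-fold lower at all times, at -1.04, -3.14 and -4.68. The other genes past 2-fold were Slpi and Cst6, lower at 12 hours, Spink4, lower at 4.5 days, and Tfpi2, higher at 4.5 days. The list medians were 0.06, -0.18 and -0.06.

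**Figure D4:**
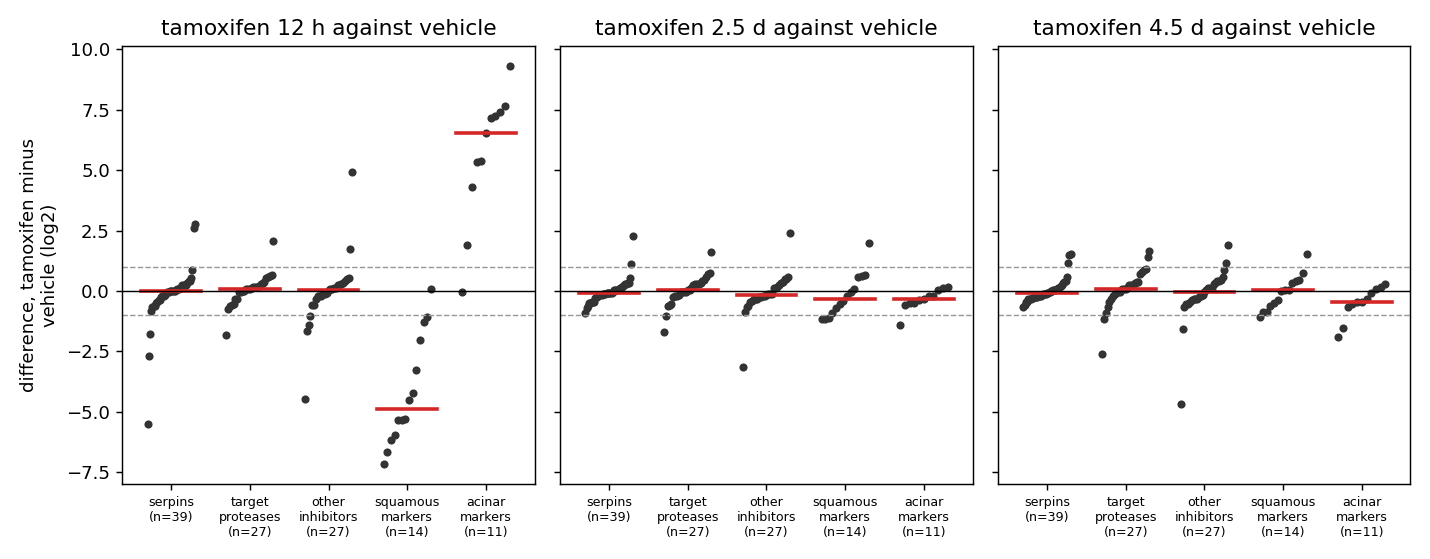
Log2 difference from vehicle of each measured gene of 5 groups, with red lines at the group medians and dashed lines at 2-fold, in a panel for each time after tamoxifen. At 12 hours the squamous markers have a median of -4.90 and the acinar markers one of 6.54, while the serpin, target protease and other inhibitor medians lie between 0.00 and 0.10.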

How the data were processed

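RNA of 4 pools, each of 3 mice, was amplified and labelled with biotin, per the labels' protocols. The authors deposited log2 expression values for 45101 probe sets. The submitters' processing notes name RMA and Partek and give no version. The log base is not stated and was taken to be 2 because the values have the range of RMA output. Quantile normalization hides a shift shared by most genes.

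Here 34945 probe sets with exactly 1 gene symbol in the platform annotation gave 18193 genes, and the brightest probe set, by its mean over the 4 arrays, stood for each gene (Python 3.11.15, pandas 2.3.3). Differences were taken for 5 pairs of arrays and called at 2-fold, with no filter on level. With 1 array for each group there is no test, and the number of arrays limits the precision. The calling step was tested on simulated data.

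The serpin members, the 17 cell type lists, the 5 pathway lists and the motifs were chosen with earlier results of these data known. Values on every array are given for serpins past 2-fold on any tamoxifen array or with a mean at or above 6.63, the median of all genes' means. Other genes were named from the lists by their size, and a few beside a result after their values were seen. Alternatives concerned the probe set, the filter, the fold and the centring.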

Additional observations from a re-analysis of the deposited data

How the results depend on the processing

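No paired analysis was possible because each group is 1 array. The 7 serpins past 2-fold on any tamoxifen array became 4 without the 12-hour array, an alternative chosen after seeing the data. A filter on mean level at the median or the 75th percentile of genes left 1 serpin at least 2-fold higher and 0 lower at 12 hours, 1 higher at 2.5 days, and 0 in either direction for both steps between tamoxifen arrays; at 4.5 days the 75th percentile left 1. The filter's mean includes the 12-hour value, by which Serpinb12 fell below the median cut. With 1.5-fold in place of 2-fold, 7 serpins were lower at 12 hours, 3 at 2.5 days and 1 at 4.5 days. From 2.5 to 4.5 days 3 were higher and 2 lower. With 3-fold, 1 was higher at 2.5 days, 0 at 4.5 days, 0 lower in the step from 12 hours, and 0 in either direction in the later step. The shares of all genes at 1.5-fold, at 3-fold and under the 75th percentile filter were not taken, so those counts have no background beside them. The serpin median turned positive under the median and 75th percentile filters, to 0.25 and 0.14 at 2.5 days and 0.18 and 0.32 at 4.5 days, and with centring on the hybridisation controls, to 0.02 at 2.5 days, 0.07 at 4.5 days and 0.09 in the step from 12 hours. For Serpinb12, taking the probe set of median absolute change selects the dim one, which gave -0.35 at 12 hours and -0.01, against 4.61, in the step to 2.5 days. Of 300 alternative values of 15 serpins, 240 moved by less than 0.13, the robust SD of the brighter genes' differences between the 2.5-day and 4.5-day arrays, 59 moved by more and 1 is that reversal of Serpinb12. In all 11 values changed sign, 10 of them from differences under 2-fold, among them Serpinh1 with its other probe set (0.11 at 2.5 days and 0.19 at 4.5 days, against -0.29 and -0.23) and Serpina7 at 4.5 days with the hybridisation controls (0.11, against -0.06). The causes were not tested. Many of the 300 values could hardly move. A gene with 1 probe set keeps its value under both probe set choices, and centring shifts every gene by the same amount. The tally is therefore no measure of stability. Signal over background limits the dim serpins most.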

Other observations

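The 3 probe sets that name several serpins entered no comparison, and all were dim. The one for Serpina1d and Serpina1a was at 3.15 at 12 hours, 3.25 at 2.5 days and 2.80 at 4.5 days after tamoxifen, against 3.73 in vehicle. The one for Serpina1e, Serpina1c and Serpina1b was at 3.34, 3.24 and 3.24 on the tamoxifen arrays in order of time, against 3.31 in vehicle. The one for Serpinb9h, Serpinb9g, Serpinb9e and Serpinb9f was at 3.66, 3.43 and 3.72, against 3.63 in vehicle.

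Of the cell type lists not set beside a serpin, the 6 parietal markers had median differences of -2.02, -1.54 and -1.12 at the 3 times, and the 5 chief cell markers -0.21, -1.68 and -2.44. The 3 mucous neck markers were at -0.09, 0.56 and 1.30, the 4 surface mucous markers at 0.02, 0.06 and 0.04, and the 6 endocrine markers at -0.10, -0.30 and -0.47. The 6 neutrophil markers were at 0.18, 0.07 and -0.19, and the 5 enteric neuron markers at 0.24, -0.12 and -0.33. The 10 liver and plasma protein genes were at -0.14, -0.38 and -0.21, with 3 at least 2-fold lower at each time. The mast cell medians were 0.16 and 0.14 at 12 hours and 2.5 days, and the mesothelial medians -0.48 and -0.09.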
